A study of Mus musculus with 8 samples.

Results

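The interferon response genes examined here are a list of 45 mouse genes that interferon signalling induces or that carry its signal, and 43 of them were among the 19787 gene symbols of the deposited count matrix. Mx1 and Mx2 were not among those symbols and were not analysed here. The members were matched by symbol, whatever their level. Counts of unique molecular identifiers (UMIs), each standing for a captured transcript, were available for 12447 nuclei from low thoracic spinal cord in 8 libraries. All mice were labelled wild-type C57BL/6, and the labels used here gave no age, sex or time after injury. In experiment 1, cord of 2 uninjured replicates was sorted into a traced fraction with GFP and an untraced fraction without it. Experiment 2 held 2 libraries after hemisection, a cut through 1 side of the cord, and 1 library of an uninjured control. Experiment 3 held 1 library with GFP and the condition "regen", called regenerating here.

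Interferons are cytokines that bind receptors on the cell surface and, through Janus kinases, activate STAT transcription factors. Type I interferons lead to a complex of STAT proteins and IRF9 that binds the interferon-stimulated response element (ISRE) in target promoters, and interferon gamma leads to STAT dimers that bind gamma-activated sites (GAS). The induced proteins sense and degrade foreign RNA, attach the ubiquitin-like protein ISG15, attack the membranes around intracellular pathogens or limit the signal itself. Glia and neurons both carry interferon receptors.

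The 250 bases before each RefSeq start site (build GRCm38.p6) were searched on both strands for ISRE letters, GAAA and GAAA with 2 bases of any kind between them, and for GAS letters, TTC and GAA with 3 bases between them, overlaps allowed. RefSeq held a promoter for 34 of the 43 members. ISRE letters occurred in 15 of these 34 (44.1%), against 3.46% of 27025 genes with a promoter, and GAS letters in 7 (20.6%) against 8.13%. Both were present in 4 members (11.8%) and in 0.459% of all genes. The windows below are shown with ISRE matches in capitals because the results turn on these 4 members, all on the plus strand. Ifit1 (chr19:34640639-34640888) and Ifit3 (chr19:34583279-34583528) encode related proteins and stood in different ratios in neurons and glia, Ddx60 (chr8:61927837-61928086) rose in neurons, and Oasl2 (chr5:114896684-114896933) rose there without those letters in its window.
Ifit1: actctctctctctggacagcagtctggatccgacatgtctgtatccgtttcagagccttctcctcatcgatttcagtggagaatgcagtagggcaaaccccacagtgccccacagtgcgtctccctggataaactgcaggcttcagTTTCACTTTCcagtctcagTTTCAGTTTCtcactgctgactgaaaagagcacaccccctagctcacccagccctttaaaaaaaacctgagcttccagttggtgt
Ifit3: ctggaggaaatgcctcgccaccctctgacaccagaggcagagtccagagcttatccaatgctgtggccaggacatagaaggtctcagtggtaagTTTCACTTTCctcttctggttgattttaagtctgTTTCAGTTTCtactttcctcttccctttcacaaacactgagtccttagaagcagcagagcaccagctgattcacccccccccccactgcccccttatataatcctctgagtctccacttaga
Ddx60: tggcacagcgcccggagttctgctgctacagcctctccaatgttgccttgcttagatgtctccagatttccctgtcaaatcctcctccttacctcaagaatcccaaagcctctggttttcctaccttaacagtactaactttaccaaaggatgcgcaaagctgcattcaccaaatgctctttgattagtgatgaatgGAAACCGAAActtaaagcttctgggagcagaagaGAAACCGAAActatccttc
Oasl2: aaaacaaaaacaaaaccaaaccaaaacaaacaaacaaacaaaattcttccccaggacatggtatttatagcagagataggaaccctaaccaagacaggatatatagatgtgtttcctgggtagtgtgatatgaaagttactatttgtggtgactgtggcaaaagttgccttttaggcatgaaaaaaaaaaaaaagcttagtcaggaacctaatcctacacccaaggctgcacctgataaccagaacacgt
The matches began 104 and 85 bases before the start site in Ifit1, 156 and 122 bases before it in Ifit3, and 53 and 19 bases before it in Ddx60.

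The deposited annotation called 4076 nuclei neurons and put the other 8371 into 5 further classes. Neuronal UMIs per library ranged from 135012 (regenerating) to 20739862 (uninjured), with 8141448 and 1046173 in hemisection replicates 1 and 2. The hemisection libraries stood apart in makeup, with 1000 of 1116 and 108 of 1511 nuclei called neurons. Nucleus names of both carry 1 prefix, as those of the traced and untraced fractions of 1 replicate do, so separate animals are not shown, and p-values measure the spread between these libraries, which may be technical. The uninjured and regenerating groups of 1 library each were assumed to vary like the replicated groups. Untraced libraries came from another experiment than the hemisection ones and were a sorted fraction. In that comparison hemisection cannot be told apart from experiment and sorting. The uninjured library alone shared the experiment of the hemisection ones. Regenerating and traced libraries also differed in experiment. Levels are in CPM, a gene's share of the UMIs of 1 class in 1 library scaled to a total of 1000000. In all, 4 barcode sequences were found in more than 1 library, and the hemisection libraries shared 0.

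Neurons after hemisection held more transcripts of the interferon response genes than neurons of either uninjured reference. The members together stood at 561 and 781 CPM in hemisection replicates 1 and 2, at 165 CPM in the uninjured library and at 112 and 133 CPM in the untraced replicates. Ifit1, Oasl2, Usp18, Ddx60, Herc6, Rnf213, Iigp1, Gm4951 and Cd274 rose against both references. They encode RNA-binding and antiviral proteins, a helicase, ligases and a protease of the ubiquitin type, GTPases and the immune checkpoint ligand PD-L1.

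In edgeR's quasi-likelihood test with Benjamini-Hochberg adjustment, 25 members passed the filter on low counts and 18 did not. That filter asked each gene for a sufficient level in a single library, in neurons and in the other classes. A member could thus pass through hemisection alone, as Iigp1 did in neurons, so the share called among tested members depends in part on the filter. Against the uninjured library 14 of the 25 were called higher (adjusted p under 0.05) and 0 lower, where 0.948% of 11601 tested genes were called higher and 4.61% lower. Against untraced neurons 10 of the 25 were called higher and 0 lower, where 0.138% of genes were called higher and 0.0517% lower. From pooled counts, with members at 0 in the reference set at the floor of 3 counts, the median log2 fold was 1.83 over 42 members against uninjured and 2.16 over 41 members, 10 of them at that bound, against untraced neurons. Fitted medians over all tested genes were 0.03 and -0.02. The same hemisection libraries enter both comparisons. Over all 43 members, 35 lay higher in both hemisection libraries than in the uninjured and untraced ones, as did 7.35% of 19074 genes with a count. Oasl1, Oas2, Oas3, Parp14, Igtp, Ifi27, Trim25 and Cmpk2 overlapped. In these sums, more positive nuclei and more RNA per nucleus cannot be told apart.

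**Figure D1:**
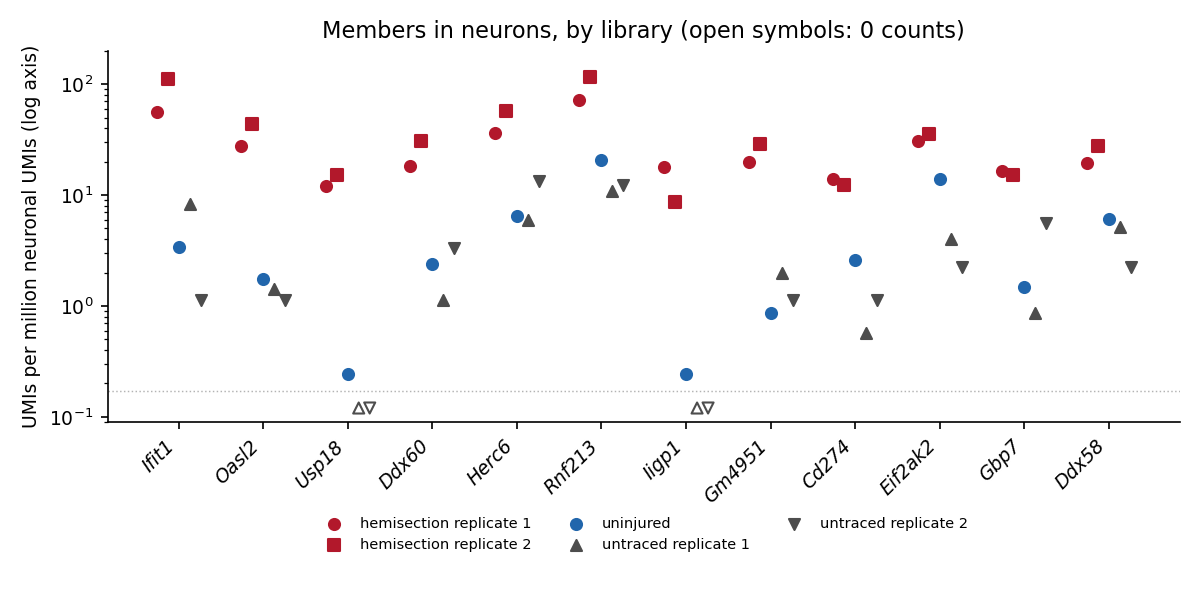
Level of 12 members in neurons (y axis, CPM on a log axis), with 1 symbol per library and open symbols at the bottom for 0 counts. For each gene both hemisection symbols lie above the uninjured and untraced ones, with Ifit1 at 55.6 and 112 CPM against 8.27 CPM or less.

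Among the transcription factors, 1 of 3 tested members was called. Stat2, a subunit of the complex that binds the ISRE, stood at 68 and 77.4 CPM after hemisection, at 32.8 CPM in the uninjured library and at 29.6 and 40.3 CPM in the untraced ones. Both hemisection values lay above the 3 others, and it rose by 1.24 ± 0.31 (adjusted p = 0.0263) on the log2 scale (± SE) against uninjured, while the change against untraced neurons was not called (1.12 ± 0.28, adjusted p = 0.246). Irf9, its partner in that complex, stood at 14.6 and 15.3 CPM after hemisection, at 7.14 CPM in the uninjured library and at 6.56 and 11.2 CPM in the untraced ones and was not called (1.16 ± 0.49, adjusted p = 0.212 against uninjured). Irf7, a regulator of type I interferon genes, was not called either (3.06 ± 1.26, adjusted p = 0.204), and Irf1 was below the filter.

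All 3 tested sensors of foreign RNA were called against the uninjured library, and Ddx60 also against untraced neurons. Ddx60, a helicase that aids RIG-I, stood at 18.2 and 30.6 CPM after hemisection, at 2.36 CPM in the uninjured library and at 1.14 and 3.36 CPM in the untraced ones. The groups did not overlap, and it rose by 3.39 ± 0.61 (adjusted p = 0.00374) on the log2 scale (± SE) against uninjured and by 3.8 ± 0.66 (adjusted p = 0.026) against untraced neurons. Ddx58, which encodes RIG-I itself, stood at 19.4 and 27.7 CPM after hemisection, at 6.12 CPM in the uninjured library and at 5.13 and 2.24 CPM in the untraced ones. It rose by 1.98 ± 0.47 (adjusted p = 0.0222) against uninjured, and the change against untraced neurons missed the threshold (2.4 ± 0.49, adjusted p = 0.0726). Ifih1, a sensor of long double-stranded RNA, rose by 3.46 ± 0.9 (adjusted p = 0.0344) against uninjured. Dhx58 and Zbp1 were below the filter.

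Of the IFIT genes, whose products bind foreign RNA, 1 of 2 tested members was called. Ifit1 stood at 55.6 and 112 CPM after hemisection, at 3.42 CPM in the uninjured library and at 8.27 and 1.12 CPM in the untraced ones. The lower hemisection library lay above the highest of the others, and Ifit1 rose by 4.66 ± 0.62 (adjusted p = 0.00037) on the log2 scale (± SE) against uninjured and by 3.7 ± 0.54 (adjusted p = 0.00527) against untraced neurons. Ifit3 stood at 5.28 and 8.6 CPM after hemisection, at 1.35 CPM in the uninjured library and at 0.855 and 1.12 CPM in the untraced ones and was not called (2.34 ± 0.94, adjusted p = 0.184). Ifit3 shares 46.6% of its transcript stretches of 61 bases with Ifit3b, so its count is uncertain.

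Of 5 members of the oligoadenylate synthetase family, Oasl2 alone passed the filter, and it was called. Oasl2, an antiviral protein related to the enzymes that switch on RNase L, stood at 27.6 and 44 CPM after hemisection, at 1.74 CPM in the uninjured library and at 1.43 and 1.12 CPM in the untraced ones. The hemisection libraries lay far above all 3 others, and it rose by 4.39 ± 0.5 (adjusted p = 0.000121) on the log2 scale (± SE) and by 4.67 ± 0.54 (adjusted p = 0.000549) against untraced neurons. Oas2, a synthetase, stood at 0.614 and 0 CPM after hemisection and overlapped the other libraries.

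All 3 tested members of the ISG15 and ubiquitin group were called against both references. Usp18, the protease that removes ISG15 and dampens the type I receptor, stood at 12 and 15.3 CPM after hemisection, at 0.241 CPM in the uninjured library and at 0 CPM in both of the untraced ones. It rose by 5.74 ± 1.04 (adjusted p = 0.00439) on the log2 scale (± SE) against uninjured neurons and was at least 18.2-fold higher than in untraced neurons (adjusted p = 0.0492), taking a floor of 3 counts over the group. Herc6, an ISG15 ligase in the mouse, stood at 36.4 and 57.4 CPM after hemisection, at 6.51 CPM in the uninjured library and at 5.99 and 13.4 CPM in the untraced ones. The groups did not overlap, and it rose by 2.89 ± 0.44 (adjusted p = 0.00105) and by 2.49 ± 0.42 (adjusted p = 0.0248) against untraced neurons. Rnf213, a giant ubiquitin ligase, stood at 71.9 and 117 CPM after hemisection, at 20.6 CPM in the uninjured library and at 10.8 and 12.3 CPM in the untraced ones. It too did not overlap, and rose by 2.26 ± 0.34 (adjusted p = 0.000924) and by 3.05 ± 0.33 (adjusted p = 0.000405) against untraced neurons. Isg15 itself was below the filter, at 3.07 and 7.65 CPM after hemisection, at 1.21 CPM in the uninjured library and at 0 and 1.12 CPM in the untraced ones.

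Among the interferon-inducible GTPases, 4 of 5 tested members were called against uninjured and 2 against untraced neurons. Iigp1, an immunity-related GTPase that attacks vacuoles of parasites, stood at 17.9 and 8.6 CPM after hemisection, at 0.241 CPM in the uninjured library and at 0 CPM in both of the untraced ones. It rose by 5.84 ± 0.91 (adjusted p = 0.00198) on the log2 scale (± SE) against uninjured and was at least 24.8-fold higher than in untraced neurons (adjusted p = 0.026). Gm4951, a predicted gene of the same GTPase family, stood at 19.8 and 28.7 CPM after hemisection, at 0.868 CPM in the uninjured library and at 2 and 1.12 CPM in the untraced ones. The groups did not overlap, and it rose by 4.81 ± 0.65 (adjusted p = 0.000404) and by 3.73 ± 0.6 (adjusted p = 0.0174) against untraced neurons. Gbp7, a guanylate-binding protein gene, stood at 16.3 and 15.3 CPM after hemisection, at 1.49 CPM in the uninjured library and at 0.855 and 5.59 CPM in the untraced ones. It rose by 3.49 ± 0.74 (adjusted p = 0.0109) against uninjured and was not called against untraced neurons (2.94 ± 0.74, adjusted p = 0.264). Gbp3, of the same family, rose by 4.31 ± 1.03 (adjusted p = 0.024) against uninjured.

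Parp9, Parp12 and Parp14, of the ADP-ribosyltransferase family, were tested and not called. Parp14 stood at 7.98 and 12.4 CPM after hemisection, at 9.31 CPM in the uninjured library and at 2.28 and 1.12 CPM in the untraced ones, so the hemisection and uninjured values overlapped (0.13 ± 0.54, adjusted p = 0.94). Of the other induced proteins, Cd274, which encodes PD-L1, stood at 13.9 and 12.4 CPM after hemisection, at 2.6 CPM in the uninjured library and at 0.57 and 1.12 CPM in the untraced ones. The groups did not overlap, and it rose by 2.45 ± 0.63 (adjusted p = 0.0335) on the log2 scale (± SE) and by 4.24 ± 0.79 (adjusted p = 0.043) against untraced neurons. Eif2ak2, which encodes the RNA-activated kinase PKR, stood at 31 and 35.4 CPM after hemisection, at 13.9 CPM in the uninjured library and at 3.99 and 2.24 CPM in the untraced ones. It rose by 3.23 ± 0.44 (adjusted p = 0.0031) against untraced neurons and missed the threshold against uninjured (1.33 ± 0.38, adjusted p = 0.0559). Ifi27 had the single negative estimate against uninjured (-0.7 ± 0.63, adjusted p = 0.605).

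Leaving out single libraries changed several of these neuronal calls and no sign of a named member. Without hemisection replicate 1, 6 members were called against uninjured (Oasl2, Herc6, Ddx60, Rnf213, Gm4951 and Ifit1) and 5 against untraced neurons (Oasl2, Herc6, Rnf213, Eif2ak2 and Ifit1). Without hemisection replicate 2 the counts were 9 and 7, with Cd274 (adjusted p = 0.0909 and 0.0554) among those lost. Without untraced replicate 1, Rnf213 and Ifit1 were the 2 called against untraced neurons, and 14 were called without untraced replicate 2. DESeq2 called Herc6 and Rnf213 against uninjured, giving no adjusted p for 18 of the 25, and Oasl2, Rnf213 and Eif2ak2 against untraced neurons.

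Markers of other cell types in the neuron sums moved in different directions. The 12 microglial markers summed to 145 and 263 CPM in hemisection neurons, 239 CPM in uninjured and 101 and 143 CPM in untraced ones, with 11 of 12 detected and Itgam at 0 in both hemisection libraries. The 8 oligodendrocyte markers, all detected, summed to 105 and 184 CPM after hemisection, 776 CPM in uninjured and 241 and 283 CPM in untraced neurons. The 11 lymphocyte markers summed to 52.2 and 178 CPM after hemisection, with 9 and 7 detected, and to 5.11 CPM in uninjured and 5.7 and 2.24 CPM in untraced neurons. Igkc, an antibody light chain gene, rose by 7.4 ± 0.78 (adjusted p = 7.5e-05) on the log2 scale against uninjured neurons. Jchain, the other tested lymphocyte marker, was not called (3.34 ± 0.96, adjusted p = 0.0544). Of 8 tested microglial markers, Lyz2, a gene of myeloid cells in general, was the 1 called higher against uninjured (3.68 ± 0.88 (adjusted p = 0.0241)), and P2ry12 (-2.12 ± 0.4 (adjusted p = 0.00498)), Dock2 (-2.03 ± 0.39 (adjusted p = 0.0058)) and Cx3cr1 (-1.45 ± 0.38 (adjusted p = 0.0344)) were called lower. Against untraced neurons 0 of the 8 were called. In neurons with no UMI of a microglial marker, the members together stood at 444 and 392 CPM after hemisection, 145 CPM in uninjured and 122 and 150 CPM in untraced neurons. That subset held 418 and 15 hemisection neurons and 3 tested members, of which Ifit1 was called against uninjured (adjusted p = 0.0225) and 0 against untraced neurons. The part of lymphoid and other myeloid RNA in the neuronal levels was not tested.

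The balance of Ifit1 and Ifit3 differed between neurons and glia of the same libraries. The ratio of their counts was 10.5 (95% interval 7.7 to 14.8) and 13 (6.62 to 29.1) in the neurons of hemisection replicates 1 and 2. In oligodendrocytes it was 0.538 (0.182 to 1.45) and 0.52 (0.417 to 0.648), and in microglia 0.667 (0.0557 to 5.82) and 0.397 (0.249 to 0.619). The intervals of neurons lay above those of both glial classes in each library, for counting error only. The shift was not particular to this pair. The ratio of Ifit1 to Oasl2 was 2.01 and 2.54 in neurons, 0.194 and 0.28 in oligodendrocytes and 0.0625 and 0.0967 in microglia. Ratios of Ifit1 to Iigp1 and to Irgm1 were likewise higher in neurons. These ratios were taken in hemisection libraries alone, and Ifit3 counts are uncertain because of the sequence shared with Ifit3b. Ifit1 stood at 55.6 and 112 CPM in neurons, 42.2 and 72.8 CPM in oligodendrocytes and 24.2 and 23.2 CPM in microglia. Ifit3 stood at 5.28 and 8.6 CPM in neurons, 78.3 and 139.8 CPM in oligodendrocytes and 36.2 and 58.4 CPM in microglia.

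The members were unevenly spread over hemisection neurons. In replicate 1, 167 of 1000 neurons (16.7%) held UMIs of 5 or more different members, and these carried 74.5% of all member counts. In replicate 2, 32 of 108 neurons (29.6%) did so, with 80.9% of the counts. Such nuclei made up 2.51% of uninjured neurons (54 of 2148), with 12.3% of the counts there. They were 5 of 354 untraced neurons in replicate 1, with 7.61% of the counts, and 0 of 123 in replicate 2. Nuclei chosen for many members carry a large share of the counts in part by that choice. Neurons with 5 or more members were deeper, with a median of 11939 UMIs in replicate 1, against 8323 in those with 1 to 4 members and 3004.5 in those with 0. Their microglial markers summed to 140 CPM in replicate 1, beside 142 and 162 CPM in these other sets.

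**Figure D2:**
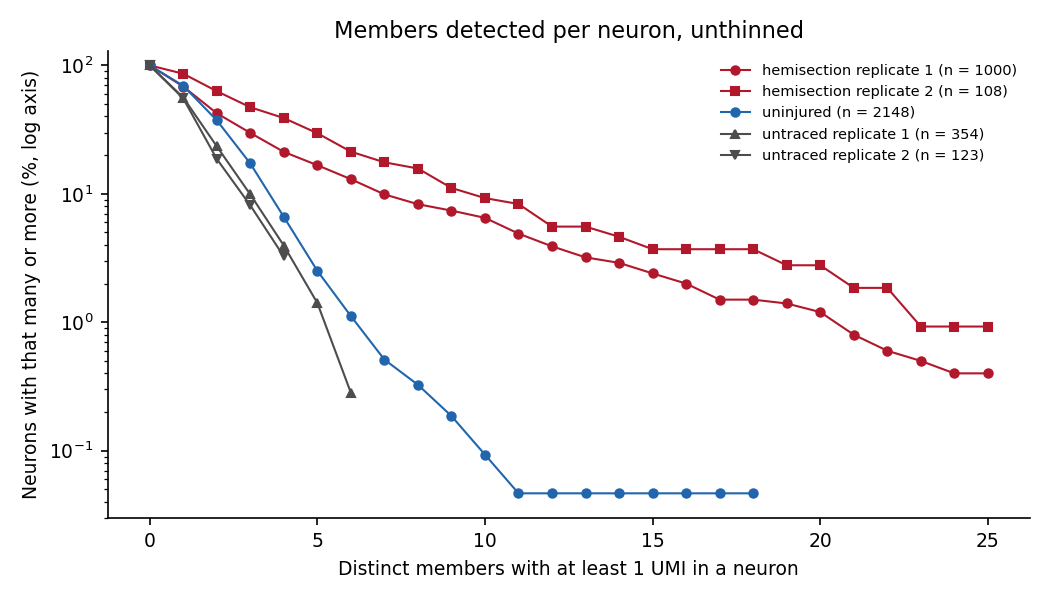
Share of neurons (y axis, percent on a log axis) with at least the number of different members on the x axis, unthinned, with 1 line per library. At 5 members the hemisection lines stand at 16.7% and 29.6% and the uninjured line at 2.51%.

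With each nucleus thinned to 1000 UMIs and shallower ones left out, 28% and 30.6% of hemisection neurons held a member UMI, against 13.7% of uninjured and 9.92% and 17.1% of untraced neurons. At least 2 members were found in 10.3% and 13.9% of thinned hemisection neurons, 1.3% of uninjured and 0.85% and 0.855% of untraced ones. Thinning left out 85 and 0 hemisection, 1 uninjured and 1 and 6 untraced neurons. Unthinned, the shares with a member UMI were 68.4% and 86.1% after hemisection, 69.4% in uninjured and 56.2% and 55.3% in untraced neurons. The groups overlapped unthinned and not at equal depth.

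Member levels were higher after hemisection in each of the 15 neuron subtypes with at least 20 nuclei in hemisection replicate 1 and in the uninjured library. They ranged from 208 to 983 CPM (median 459) in hemisection replicate 1 and from 129 to 244 CPM (median 174) in the uninjured library. The 95% counting intervals were apart in 13 of 15 and overlapped in DE_Cck_Cpne4 and DE_Nts. This compares 2 libraries and carries no test.

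After hemisection, neurons of middle and ventral subtypes held more member transcripts than those of dorsal subtypes. The sums were 826 against 427 CPM in replicate 1 and 1147 against 628 CPM in replicate 2, and 779.8 against 408 and 887 against 520.02 CPM without the top nucleus of each set. In the uninjured library they were 179 against 149.9 CPM, and in the untraced ones 117 against 112 and 119 against 137 CPM. Tested gene by gene after these levels had been seen, edgeR called the hemisection effect different between positions for 0 of 34 members against either reference (8 and 2 at an unadjusted p under 0.05), where 0.0457% of genes were called higher in each. Herc6 differed by 1.76 ± 0.46 on the log2 scale (adjusted p = 0.0626). This fit left 1 residual degree of freedom.

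**Figure D3:**
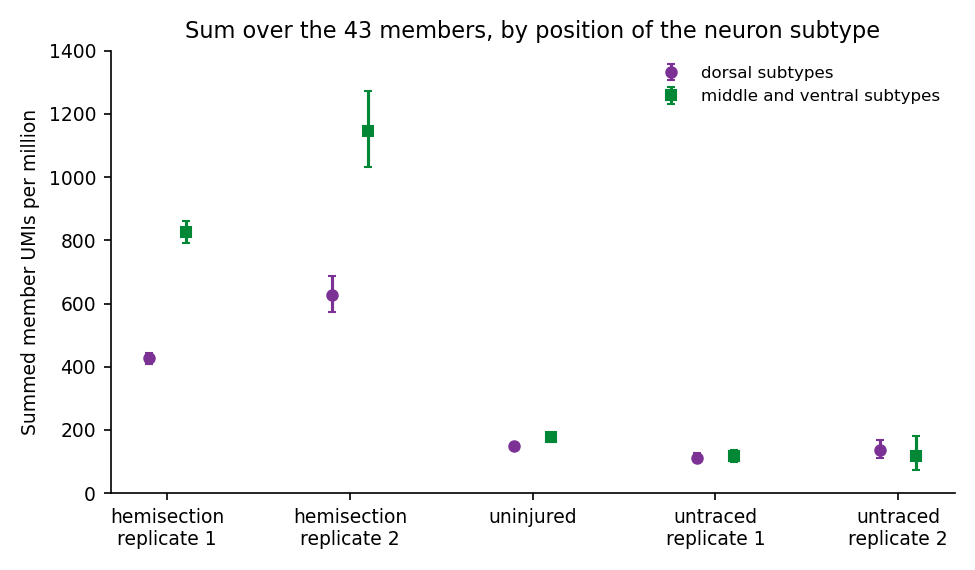
Summed level of the 43 members (y axis, CPM) in dorsal and in middle and ventral neurons of each library, with bars for 95% counting intervals. After hemisection the middle and ventral sets stand at 826 and 1147 CPM and the dorsal sets at 427 and 628 CPM.

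In oligodendrocytes, the myelinating glia, nearly the whole set rose after hemisection. Of 38 tested members, 37 were called higher against uninjured and 38 against untraced oligodendrocytes, where 2.83% and 2.08% of 11924 genes were. The members together stood at 4396 and 4769.9 CPM in hemisection replicates 1 and 2, at 235 CPM in the uninjured and at 219 and 284 CPM in the untraced libraries. Pooled median log2 folds over 42 members, with bounds for those at 0, were 4.92 and 5.41, and fitted medians over all tested genes were -0.08 and -0.03. All 4 transcription factors, 5 sensors, 4 IFIT genes, 5 members of the ISG15 and ubiquitin group and 4 of the PARP group were called against both references. The 14 members called in neurons against uninjured were all called here, and are 37.8% of the 37. Over all 43 members, 41 lay higher in both hemisection libraries than in the 3 others, as did 8.97% of genes with a count. Oas2 and Oas3 overlapped.

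Iigp1 stood at 566 and 417 CPM after hemisection, at 0.437 CPM in the uninjured library and at 0 CPM in both of the untraced ones. It rose by 10.06 ± 0.47 (adjusted p = 1.26e-09) on the log2 scale (± SE) against uninjured and was at least 850.0-fold higher than in untraced oligodendrocytes. Gm4951 stood at 373 and 339 CPM after hemisection, at 0.437 CPM in the uninjured library and at 0 and 0.815 CPM in the untraced ones and rose by 9.62 ± 0.52 (adjusted p = 2.12e-09). Both GTPase genes were thus near 0 without injury. Oasl2 stood at 217 and 259.5 CPM after hemisection, at 1.22 CPM in the uninjured library and at 0.638 and 0.815 CPM in the untraced ones and rose by 7.67 ± 0.45 (adjusted p = 5.39e-09). Irgm1, an autophagy-linked GTPase, stood at 175 and 251 CPM after hemisection, at 2.71 CPM in the uninjured library and at 0.213 and 2.44 CPM in the untraced ones and rose by 8.12 ± 0.52 (adjusted p = 7.25e-09) against untraced oligodendrocytes.

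Gbp7 stood at 283 and 264 CPM after hemisection, at 3.5 CPM in the uninjured library and at 1.7 and 4.89 CPM in the untraced ones and rose by 6.34 ± 0.43 (adjusted p = 3.09e-08) on the log2 scale (± SE) against uninjured oligodendrocytes. Cd274 stood at 132 and 155 CPM after hemisection, at 1.22 CPM in the uninjured library and at 1.28 and 0.815 CPM in the untraced ones and rose by 6.95 ± 0.49 (adjusted p = 4.38e-08). Herc6 stood at 307 and 321 CPM after hemisection, at 11.5 CPM in the uninjured library and at 12.8 and 18.7 CPM in the untraced ones and rose by 4.85 ± 0.35 (adjusted p = 6.01e-08). The groups overlapped for none of Gbp7, Cd274 and Herc6. Ifi27, a mitochondrial protein gene, rose by 1.84 ± 0.35 (adjusted p = 0.00285), and Cmpk2, a nucleotide kinase, missed the threshold against uninjured (2.82 ± 0.87, adjusted p = 0.0578).

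After thinning, 76.3% and 75.8% of hemisection oligodendrocytes held a member UMI, against 20.9% of uninjured and 17.3% and 21.6% of untraced ones, and 90.3%, 85%, 52.7%, 46% and 37.9% unthinned. Without hemisection replicate 2, which leaves 62 hemisection nuclei, 17 of 33 tested members were called against each reference. Microglial markers summed to 223 and 619 CPM in hemisection oligodendrocytes, with 7 and 12 of 12 detected. Their sum was 178 CPM in uninjured and 77 and 296 CPM in untraced ones. Lyz2 (4.09 ± 0.61, adjusted p = 0.000403), C1qb, C1qa and Aif1 were called higher against untraced oligodendrocytes, and the other tested microglial markers were not called. After thinning, 18.6% and 45.3% of hemisection oligodendrocytes held a microglial marker UMI, against 17% of uninjured and 8.18% and 26.1% of untraced ones. Lymphocyte markers summed to 151 and 685 CPM, with 2 and 10 of 11 detected, against 6.21 CPM in uninjured and 4.25 and 1.63 CPM in untraced oligodendrocytes. Igkc (7.57 ± 0.6, adjusted p = 1.63e-07) and Jchain (6.25 ± 0.82, adjusted p = 9.38e-05) were called higher against untraced oligodendrocytes, and Nkg7 and Cd3e were not called. The part of these cell types in the member values was not tested.

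**Figure D4:**
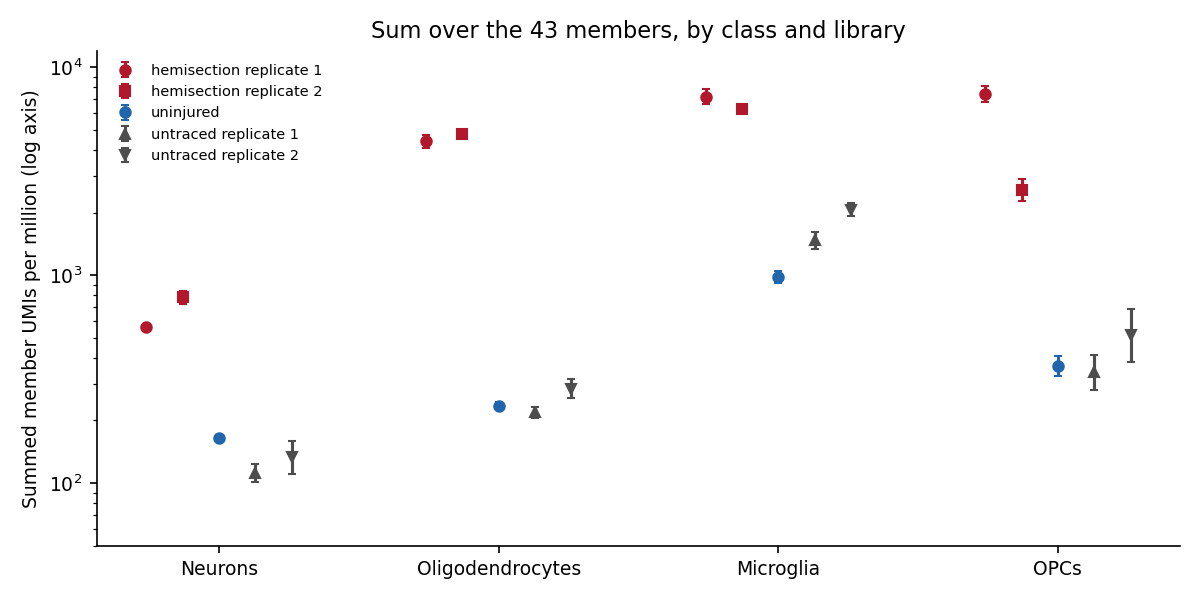
Summed level of the 43 members (y axis, CPM on a log axis) in 4 classes, with 1 symbol per library and bars for 95% counting intervals. In each class both hemisection symbols lie above the others, in oligodendrocytes at 4396 and 4769.9 CPM against 284 CPM or less.

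In microglia, the resident immune cells of the cord, most members rose, from an uninjured level above that of neurons and oligodendrocytes. Of 39 tested, 33 were called higher against uninjured and 25 against untraced microglia, where 7.35% and 4.45% of 8283 genes were. The members together stood at 7222 and 6285 CPM after hemisection, 980.1 CPM in the uninjured library and 1469.8 and 2066 CPM in the untraced ones. Pooled median log2 folds over 42 members, with bounds for those at 0, were 3.01 and 2.06, and fitted medians over all tested genes were -0.08 and -0.02. Of 43 members, 38 lay higher in both hemisection libraries than in the 3 others, as did 9.97% of genes with a count. Irf9, Parp12, Dtx3l, Igtp and Trim25 overlapped.

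Iigp1 stood at 362 and 409 CPM after hemisection, at 0 CPM in the uninjured library and at 15 and 37.9 CPM in the untraced ones. It was at least 138-fold higher than in uninjured microglia and rose by 3.81 ± 0.42 (adjusted p = 1.63e-10) on the log2 scale (± SE) against untraced ones. Cd274 stood at 809 and 367 CPM after hemisection, at 25.5 CPM in the uninjured library and at 48 and 43.7 CPM in the untraced ones and rose by 4.37 ± 0.49 (adjusted p = 1.54e-10) and by 3.48 ± 0.38 (adjusted p = 1.67e-10) against untraced microglia. For both, every hemisection value lay above the others. Oasl2 stood at 386 and 240.1 CPM after hemisection, at 6.87 CPM in the uninjured library and at 15 and 58.3 CPM in the untraced ones and rose by 5.35 ± 0.62 (adjusted p = 3e-10) and by 2.91 ± 0.43 (adjusted p = 4.46e-07) against untraced microglia. Gm4951 stood at 314 and 383 CPM after hemisection, at 9.81 CPM in the uninjured library and at 102 and 61.2 CPM in the untraced ones and rose by 5.15 ± 0.55 (adjusted p = 3.91e-11) and by 2.07 ± 0.36 (adjusted p = 1.62e-05) against untraced microglia.

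Stat2 stood at 386 and 323 CPM after hemisection, at 34.3 CPM in the uninjured library and at 93 and 128 CPM in the untraced ones and rose by 3.31 ± 0.46 (adjusted p = 4.15e-08) on the log2 scale (± SE) against uninjured microglia. Oas2, a synthetase, stood at 72.5 and 107 CPM after hemisection, at 0 CPM in the uninjured library and at 3 and 40.8 CPM in the untraced ones, at least 35.7-fold higher than in uninjured microglia. Neither gene's groups overlapped. Rnf213 stood at 640.0 and 727 CPM after hemisection, at 109 CPM in the uninjured library and at 90.0 and 245 CPM in the untraced ones and rose by 1.98 ± 0.32 (adjusted p = 4.36e-06) against untraced microglia. Ifit2, of the IFIT family, stood at 121 and 92 CPM after hemisection, at 6.87 CPM in the uninjured library and at 6 and 5.83 CPM in the untraced ones and rose by 3.97 ± 0.66 (adjusted p = 7.51e-06) against untraced ones. Irf9 was not called against uninjured microglia (0.16 ± 0.52, adjusted p = 0.89), and its groups overlapped.

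Thinned shares of microglia with a member UMI were 93.1% and 93.6% after hemisection, 57.1% in uninjured and 62.4% and 72.6% in untraced libraries, and 100%, 97.1%, 85.8%, 81.9% and 83.8% unthinned. Without hemisection replicate 2, which leaves 32 hemisection nuclei, 16 members were called against uninjured and 10 against untraced, and Ifit2 (adjusted p = 0.0738) and Gm4951 (0.0518) were lost against untraced. DESeq2 called 18 and 13. The uninjured library's microglia held 3749 CPM of oligodendrocyte markers, against 193 and 576 CPM after hemisection and 1242 and 1014 CPM in untraced microglia. Lymphocyte markers summed to 133 and 656 CPM after hemisection, with 2 and 11 of 11 detected, 235 CPM in uninjured and 3 and 5.83 CPM in untraced microglia. Igkc, an antibody light chain gene, rose by 1.84 ± 0.45 (adjusted p = 0.00134) against uninjured and by 7.82 ± 0.71 (adjusted p = 2.55e-13) against untraced microglia. Jchain was called higher against both (adjusted p = 0.000124 and 0.000408). Cd79a was not called against uninjured (-3.5 ± 1.4, adjusted p = 0.0668) or untraced microglia (3.91 ± 3.18, adjusted p = 0.66). Vascular markers summed to 386 and 474 CPM after hemisection, with 1 and 6 of 7 detected. Their sum was 148 CPM in uninjured and 42 and 43.7 CPM in untraced microglia. Flt1 rose by 4.24 ± 0.48 (adjusted p = 2.36e-10) and 3.87 ± 0.4 (adjusted p = 2.78e-11). Pecam1, the other tested vascular marker, was called lower against uninjured microglia (-3.63 ± 0.74, adjusted p = 0.0001). It was not called against untraced ones (-1.03 ± 0.89, adjusted p = 0.69). Microglial markers moved in both directions. P2ry12 (-1.71 ± 0.33 (adjusted p = 4.48e-05) and -1.9 ± 0.29 (adjusted p = 1.4e-06)) was called lower against both references. So was Csf1r (-0.86 ± 0.32 (adjusted p = 0.0446) and -1.28 ± 0.27 (adjusted p = 0.000597)). Lyz2 was called higher (1.95 ± 0.37 (adjusted p = 4.04e-05) and 2.57 ± 0.32 (adjusted p = 4.63e-09)). Dock2, C1qa and Ptprc were called higher against uninjured alone, and Inpp5d and Cx3cr1 lower against untraced alone. The other tested microglial markers were not called. The part of these markers' sources in the member values was not tested.

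Oligodendrocyte precursor cells (OPCs) had 14 and 26 nuclei after hemisection, and the fit set 1 hemisection library (replicate 2) against the references. With 1 residual degree of freedom, its spread came from the 2 untraced libraries alone, and the hemisection and uninjured libraries were assumed to vary like them. In that fit edgeR called 4 of 13 tested members against the uninjured library (Rnf213, Ddx60, Gm4951 and Ddx58) and 2 against untraced OPCs (Rnf213 and Gm4951), where 1.02% and 0.286% of genes were called higher. Rnf213 differed by 3.06 ± 0.61 on the log2 scale (adjusted p = 9.21e-05) against uninjured. DESeq2 gave no adjusted p for these members against uninjured and called 0 against untraced OPCs. The hemisection libraries differed widely in the members' sum, and replicate 1, the higher, was not in the fit. The members together stood at 7436 and 2569 CPM after hemisection, 366 CPM in uninjured and 342 and 517 CPM in untraced OPCs. Astrocytes, with 6 and 7 hemisection nuclei, stood at 3540.2 and 2426 CPM against 429 CPM in uninjured and 429 and 695 CPM in untraced ones. Vascular nuclei, 2 and 12 after hemisection, stood at 2281 and 2996 CPM against 2033 CPM in the uninjured library. In the untraced libraries, with 8 and 5 vascular nuclei, they stood at 829 and 1616 CPM. The last 2 classes were not tested.

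With all non-neuronal nuclei in 1 sum, edgeR called 0 of 42 tested members against uninjured and 7 against untraced, where 0% and 0.212% of genes were called higher. All 42 had an unadjusted p under 0.05 in each, and DESeq2 called 38 and 38. Against untraced, edgeR called 0 without hemisection replicate 1 or 2, 34 without untraced replicate 1 and 41 without untraced replicate 2. The class makeup of these sums differed, with 62 of 116 and 765 of 1403 nuclei oligodendrocytes after hemisection and 3164 of 4489 in the uninjured library.

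The hemisection effect was smaller in neurons than in oligodendrocytes for many members. In the test of the difference, 23 of 41 members were called lower in neurons against uninjured and 9 against untraced, with 0 called higher. Among all genes 2.16% and 0.711% were called lower and 6.58% and 0.667% higher. This fit left 2 residual degrees of freedom. Irgm1 differed by -4.27 ± 0.52 (adjusted p = 4.02e-13) on the log2 scale (± SE) with the uninjured reference. Parp14 differed by -4.82 ± 0.62 (adjusted p = 7.49e-12), Ddx60 by -3.76 ± 0.49 (adjusted p = 1.93e-11) and Cd274 by -4.31 ± 0.61 (adjusted p = 7.04e-10). Rnf213 was not called different (-0.78 ± 0.32, adjusted p = 0.121), which does not show that the effects were alike. Ifit1 was not called with the uninjured reference (-1.23 ± 0.6, adjusted p = 0.26) and was lower in neurons with the untraced one (-3.37 ± 0.9 (adjusted p = 0.0219)). Without hemisection replicate 2, 13 were called against uninjured and 5 against untraced, and without untraced replicate 1, 0 against untraced, and without untraced replicate 2, 5.

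**Figure D5:**
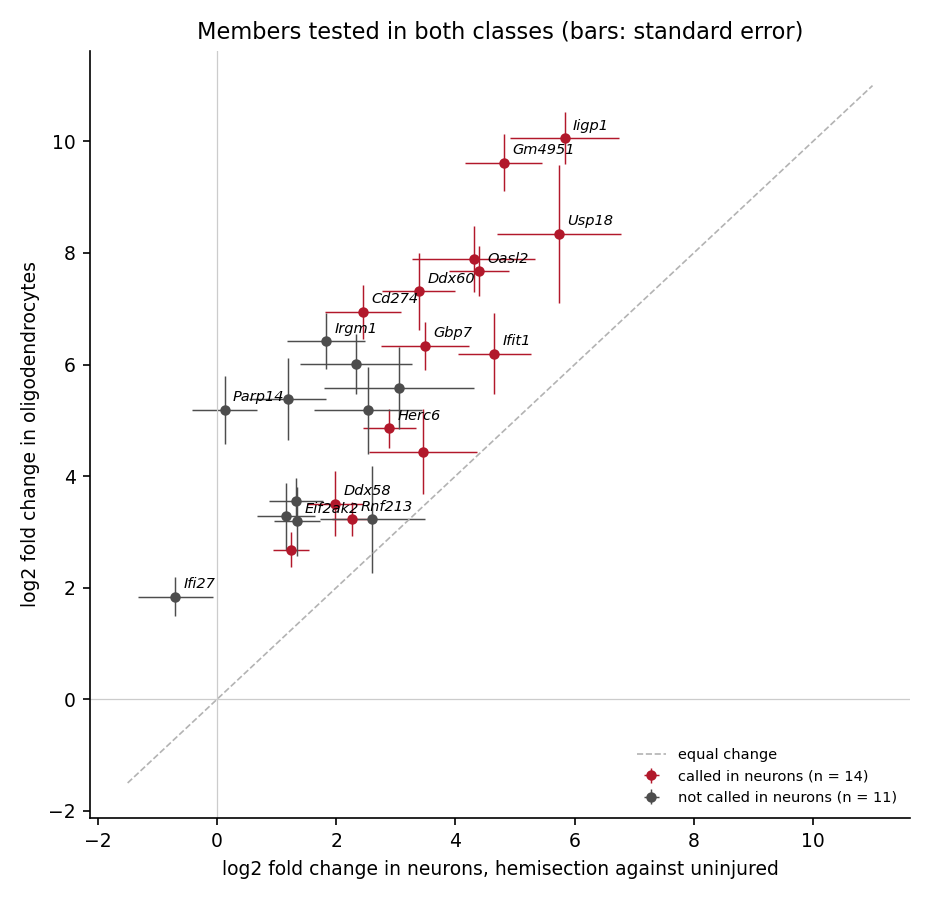
Log2 fold change of the 25 members tested in both classes, hemisection against uninjured, in neurons (x axis) and oligodendrocytes (y axis), with bars for the SE, a dashed line of equal change and red for the 14 called in neurons. All points lie above the line, Iigp1 at 5.84 in neurons and 10.06 in oligodendrocytes and Ifi27 at -0.7 and 1.84.

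With microglia as the other class, 6 of 42 members were called lower in neurons against uninjured, where 3.03% of genes were called lower and 10.4% higher. Parp14 differed by -2.29 ± 0.51 (adjusted p = 0.00016) on the log2 scale (± SE), and Stat2, Oas2, Cd274, Ifit2 and Oasl1 were the others. Ddx60 was called higher in neurons (1.48 ± 0.53 (adjusted p = 0.0395)). Without hemisection replicate 1, Cd274, Ifit2 and Oasl1 were lost (adjusted p = 0.115, 0.0656 and 0.314), and without replicate 2, Oas2, Ifit2 and Oasl1 (0.218, 0.332 and 0.217). Against untraced, 0 were called lower and Eif2ak2 was called higher (2.17 ± 0.56 (adjusted p = 0.011)), where 0.884% of genes were called lower and 1.04% higher. That call was lost without either hemisection or either untraced library (adjusted p from 0.061 to 0.333). Neuron markers summed to 2651 CPM in the uninjured library's microglia and to 326 and 93.6 CPM in the hemisection ones, and their part was not tested. With OPCs as the other class, edgeR called 0 of 30 members (0 and 1 at an unadjusted p under 0.05), where 0.142% and 0.0355% of genes were called. With all non-neuronal nuclei, 7 of 43 were called lower against uninjured and 0 against untraced (8 at an unadjusted p under 0.05), where 1.74% and 0.0761% of genes were.

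No member was called for tracing or regeneration. Between traced and untraced neurons of uninjured cord, edgeR called 0 of 25 tested members (2 at an unadjusted p under 0.05, Usp18 and Eif2ak2, and 0 by DESeq2), where 0.362% of genes were called either way. The members together stood at 113 and 239.9 CPM in the traced and 112 and 133 CPM in the untraced libraries, and 30 of the 80 member counts of traced replicate 2 came from 1 nucleus. Between regenerating and traced neurons edgeR called 0 (Irf7 at an unadjusted p under 0.05, and 0 by DESeq2), where 0.276% of genes were called. The regenerating library held 19 member counts over 9 members, 141 CPM in all, at a median of 488 UMIs per neuron.

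The rest of the pathway was followed through lists of other genes. Among all tested genes, 0.948% and 0.138% were called higher in neurons against uninjured and untraced. These shares were 2.83% and 2.08% in oligodendrocytes and 7.35% and 4.45% in microglia. Of 8 interferon ligand genes 0 passed the filter in neurons, oligodendrocytes or microglia, and over all nuclei Ifnk had 16 counts, Ifnb1 3 and Ifng 3. Of 11 receptors, kinases and signal carriers, 1 of 9 tested was called higher in neurons against each reference, 3 and 2 of 9 in oligodendrocytes, and 5 and 1 of 10 in microglia. Stat3, which many cytokines activate, rose in oligodendrocytes by 2.13 ± 0.36 (adjusted p = 0.00111) on the log2 scale (± SE) against uninjured. Ifnar1, a chain of the type I receptor, rose in microglia by 1.69 ± 0.45 (adjusted p = 0.00356) against uninjured, and Ifngr1, a chain of the receptor for interferon gamma, fell by 1.03 ± 0.33 against untraced microglia (adjusted p = 0.038). Of 14 other sensors and adaptors, 0 of 5 tested were called by edgeR in neurons (0 and 0 at an unadjusted p under 0.05) and 0 of 7 in oligodendrocytes (1 and 2). In microglia 2 of 11 were called against uninjured and 1 against untraced. Counts this small do not set the list apart from the shares over all genes. Ikbke, a kinase downstream of the RNA sensors, rose by 5.23 ± 0.66 (adjusted p = 3.71e-09) and by 3.5 ± 0.5 (adjusted p = 2.17e-07) against untraced microglia. Aim2, a DNA sensor, rose by 1.27 ± 0.36 (adjusted p = 0.00641) against uninjured and was not called against untraced microglia (0.32 ± 0.29, adjusted p = 0.71).

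Nlrc5, which switches on genes of major histocompatibility complex (MHC) class I, was the 1 of 7 tested regulators called in neurons, by 5.24 ± 0.55 (adjusted p = 4.98e-05) on the log2 scale (± SE) against uninjured and 5.13 ± 0.58 (adjusted p = 0.000547) against untraced. It rose in oligodendrocytes by 5.61 ± 0.51 (adjusted p = 1.1e-06) and in microglia by 3.39 ± 0.44 (adjusted p = 9.13e-09) against uninjured, among 7 of 15 and 6 of 12 regulators called there. Of 49 other targets, 2 of 18 tested were called in neurons against each reference. In oligodendrocytes 23 and 19 of 30 were called, and in microglia 28 and 19 of 36. The shares of all genes called higher were those of the paragraph above. H2-K1, an MHC class I heavy chain, rose in neurons by 3.68 ± 0.73 (adjusted p = 0.0067) and 3.95 ± 0.74 (adjusted p = 0.043). Parp11 was the other target called against uninjured (1.09 ± 0.31 (adjusted p = 0.0492)) and B2m, the light chain of MHC class I, the other against untraced neurons (2.99 ± 0.53 (adjusted p = 0.0301)). In oligodendrocytes Tap1, a peptide transporter for MHC class I, rose by 7.17 ± 0.62 (adjusted p = 7.3e-07), and in microglia Cxcl10, a chemokine, by 6.91 ± 0.88 (adjusted p = 6.49e-09) against uninjured.

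Neuronal calls were set beside the promoter letters as a description. Of members with the letters, 5 of 8 tested were called against uninjured, and of those without them 6 of 11. Ifit3 has 2 matches, as Ifit1 does, and was not called in neurons, while it rose by 6.01 ± 0.54 (adjusted p = 1.1e-06) on the log2 scale in oligodendrocytes.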

How the data were processed

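The authors deposited UMI counts without normalization as 1 matrix, with an annotation giving each nucleus its library, class and subtype. The submitters' processing notes name Cell Ranger 4.0.0, Seurat 3 and the builds mm10 and GRCm38. How nuclei were filtered, doublets treated and classes assigned was not stated in the labels or file headers, and no filter or doublet caller was added. No barcode sequence is given for 4489 non-neuronal nuclei of the uninjured library and the 238 regenerating nuclei.

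UMIs were summed per class and library and tested with edgeR 4.0.16 in R 4.3.3 (TMM, filterByExpr with a minimum count of 10 and total of 15, glmQLFit, glmQLFTest). All 8 libraries entered the neuron fit (3 residual degrees of freedom), and libraries with at least 20 nuclei the fits of the other classes. The oligodendrocyte, microglia and non-neuronal fits, and their differences from neurons, left 2 residual degrees of freedom. Their very small p-values thus lean on a spread shared across genes more than on replicates. Adjusted p-values are Benjamini-Hochberg values over all tested genes, from this test unless another tool is named. Differences between classes were interaction terms with library as a block. The test was also run on simulated sums with a fixed spread and with changes in well-counted genes alone. That run does not speak for sparse members. Alternatives were DESeq2 1.42.0, other scalings, no filter, other sets of neurons and single libraries left out. Folds against a group at 0 use a floor of 3 counts over the group. Intervals (95%, exact) and floors cover counting error only.

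Members and lists were chosen with earlier results of these data known. Full values are given for members called in neurons against both references, then by smallest p for those called against 1, up to 12, and for up to 6 in each other class. Other members and marker genes were named after their values were seen. Traced and untraced fractions share a replicate number and a name prefix, so the numbers pair them (correlation of deviations 0.18 over 7411 genes), and numbers of hemisection and untraced libraries do not (0.06). Some genes and subtypes are not reported here.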

Additional observations from a re-analysis of the deposited data

Results flagged for a closer look

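Each of the following differences between classes in the hemisection effect passed the test of the difference itself in edgeR's quasi-likelihood fit, on the log2 scale as neurons minus the other class, where a negative value is a smaller rise in neurons. Against oligodendrocytes with the uninjured reference they were -4.27 for Irgm1, -4.82 for Parp14, -3.76 for Ddx60, -4.31 for Cd274, -4.71 for Gm4951 and -4.04 for Parp9. With the untraced reference they were -6.52 for Irgm1, -6.88 for Gm4951, -9.62 for Cmpk2, -4.87 for Irf1, -4.64 for Parp14 and -3.44 for Gbp7. Of these 6 calls, 0 remained without untraced replicate 1. Cmpk2 rose in oligodendrocytes by 9.15 ± 1.5 against untraced and by 2.82 ± 0.87 against uninjured. The size of its difference thus depends on the reference.

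Against microglia with the uninjured reference the differences were -2.29 for Parp14, -2.10 for Stat2, -10.46 for Oas2, -2.13 for Cd274, -2.78 for Ifit2 and -5.78 for Oasl1. Oas2 had 0 counts in uninjured microglia, so its value depends on the prior count and is no bound. With the untraced reference the difference was 2.17 for Eif2ak2, larger in neurons.

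Against all non-neuronal nuclei with the uninjured reference they were -3.64 for Cd274, -4.03 for Parp14, -3.29 for Irgm1, -2.53 for Parp9, -3.85 for Dhx58 and -1.34 for Stat2. Parp14 and Cd274 appear in the lists for all 3 comparisons with the uninjured reference.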

How the results depend on the processing

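Of 511 values of named members under the alternatives, 419 kept their direction and side of the threshold, 84 no longer passed, 8 newly passed and 0 changed sign. Members called higher in neurons (14 against uninjured, 10 against untraced) numbered 2 and 3 with DESeq2, 4 and 3 in dorsal excitatory subtypes alone (7 tested) and 1 and 0 in neurons without a microglial marker UMI (3 tested). Against uninjured they numbered 23 with only the 2 groups fitted and 8 with the 3 uninjured libraries as 1 group, and against untraced 17 without the filter and 5 with nuclei counted in place of UMIs. With the replicate block they numbered 13 against untraced (18 tested) and 0 for traced against untraced. Replicate numbers do not pair hemisection and untraced libraries, so that block is not a valid alternative for the first count. It also enters the 511 values above. Leaving out 1 library gave 6 to 9 and 2 to 14 in neurons, 17 to 36 and 17 to 38 in oligodendrocytes, 16 to 36 and 10 to 26 in microglia, and 0 to 0 and 0 to 41 in all non-neuronal nuclei, where DESeq2 called 38 and 38. In microglia DESeq2 called 18 and 13, and in OPCs 0 (with no adjusted p for any member) and 0, with 7 and 4 there without the filter. Members lower in neurons numbered 13 to 20 and 0 to 9 against oligodendrocytes, 3 to 4 and 0 to 0 against microglia and 7 to 11 and 0 to 2 against all non-neuronal nuclei, and 17 and 3 in the last without the filter. The cause was not tested. All genes called in neurons against uninjured ranged from 18 to 2701, beside 645. Depth limits the regenerating library, and the small hemisection classes.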
